A study of Mus musculus with 10 samples.

Results

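The genes described are 9 enzymes of the route from squalene to cholesterol: Fdft1, Sqle, Lss, Cyp51, Tm7sf2, Lbr, Msmo1, Hsd17b7 and Dhcr7. They were taken by symbol from a table of 25239 genes, and all 9 were found in it and passed the filter on low counts in every comparison. Counts came from 10 RNA sequencing libraries. The mouse Leydig tumour line MLTC-1 received hymeglusin, a beta-lactone that inhibits HMG-CoA synthase at the top of the pathway, or DMSO, the solvent (n = 3 each). Primary Leydig cells, the testosterone-making cells between the seminiferous tubules, came from testes of mice aged 24 months or 2 months, with no treatment (n = 2 each). The labels give no dose, time, mouse strain, isolation method or pooling. Nor do they tell if replicates came from distinct cultures or mice, and the p-values therefore cover the variation among these libraries alone, possibly technical.

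The pathway starts where mevalonate-derived isoprenoids become committed to sterols. Squalene is made, oxidised and folded into lanosterol, the first sterol, which then loses methyl groups and has its double bonds moved or reduced until cholesterol remains. Many genes of the route are targets of SREBP2, a transcription factor held in the endoplasmic reticulum while sterols are plentiful. Leydig cells use cholesterol as the raw material of testosterone, and take it from their own synthesis as well as from lipoproteins.

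Total counts ran from 17407456 to 34787330 per library, and a member had 222 to 23001 counts in a library, so counting error was small beside the differences given. The spread between libraries beyond counting error, edgeR's biological coefficient of variation, was 0.0509 for MLTC-1 and 0.307 for the primary cells. The 24-month pair stood further apart (chi-square per degree of freedom 134) than the 2-month pair (18.9) and the MLTC-1 pairs (3.44 to 7.67). The 10 listed Leydig cell markers were detected in all 4 groups, with a summed level of 7018 to 7171 CPM (counts scaled to a common library size) with hymeglusin, 9564 to 9825 with DMSO, 19314 to 29349 at 24 months and 20142 to 22136 at 2 months. Single markers differed far more than the sums: scaled within the DMSO and 2-month libraries, Hsd3b6 averaged 1.72 CPM with DMSO and 3165 CPM at 2 months.

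RefSeq promoter windows (GRCm38.p6) matched 7 of the 9 members, all but Fdft1 and Sqle. NF-Y, a factor that works beside SREBP at sterol genes, binds the letters CCAAT. In the 250 bases before a start site, searched on both strands, 7 of the 7 members held CCAAT, against 40.7% of the 10204 genes tested in MLTC-1 cells that had a window. Of the 7, 0 held TCACNCCAC, a form of the sterol regulatory element, against 1.27% of those tested genes. A match or its absence describes letters in these windows only. Annotated exons of any gene cover all 250 bases of the Tm7sf2 window and of the third Dhcr7 window, and 214 bases of the Msmo1 window. The 25 bases around the box nearest the start site are shown for each, read on the strand where the box spells CCAAT, in capitals.
Lss: gcgagctcggCCAATcagagcatca
Cyp51: ctgtccgccaCCAATctggtcctga
Tm7sf2: agcacagtagCCAATcagcgctggg
Lbr: ggtcgagggaCCAATggggagctca
Msmo1: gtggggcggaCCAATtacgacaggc
Hsd17b7: cgcacctcgaCCAATcaaggctcgg
Dhcr7: tcacagacgaCCAATcggaagtgga
The boxes lay 58, 25, 43, 24, 51, 8 and 45 bases before the start for Lss, Cyp51, Tm7sf2, Lbr, Msmo1, Hsd17b7 and Dhcr7, the last at the third of 3 start sites. Msmo1 and Hsd17b7 held 3 boxes each, Lbr and Dhcr7 2 each, and Lss, Cyp51 and Tm7sf2 held 1. The printed stretches lie at chr10:76531533-76531557 (minus strand) for Lss, chr5:4104712-4104736 (minus) for Cyp51, chr19:6067883-6067907 (plus) for Tm7sf2 and chr1:181842415-181842439 (minus) for Lbr. Those of Msmo1, Hsd17b7 and Dhcr7 lie at chr8:64733619-64733643 (minus), chr1:169969203-169969227 (plus) and chr7:143830155-143830179 (minus) of GRCm38.p6. The boxes read on the strand of the gene in Cyp51, Lbr and Msmo1 and on the opposite strand in the other four.

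The full windows of Lss, which fell with hymeglusin, and Lbr, which rose, are shown on the gene's strand with CCAAT or its complement ATTGG in capitals. They lie at chr10:76531355-76531604 (plus strand) and chr1:181842402-181842651 (minus strand) of GRCm38.p6.
Lss: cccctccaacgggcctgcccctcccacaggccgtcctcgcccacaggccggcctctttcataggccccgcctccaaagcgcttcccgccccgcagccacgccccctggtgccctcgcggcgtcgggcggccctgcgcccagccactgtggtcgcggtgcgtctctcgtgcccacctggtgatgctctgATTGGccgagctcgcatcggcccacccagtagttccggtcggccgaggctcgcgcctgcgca
Lbr: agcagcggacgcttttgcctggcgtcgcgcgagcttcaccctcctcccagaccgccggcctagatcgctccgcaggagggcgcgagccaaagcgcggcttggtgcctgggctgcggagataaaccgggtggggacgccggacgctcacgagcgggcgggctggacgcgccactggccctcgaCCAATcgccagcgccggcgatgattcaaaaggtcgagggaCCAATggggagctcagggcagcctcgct
The box thus occurred in the promoter window of Lbr, and in those of the members that fell other than Fdft1 and Sqle, which had no window. Its part in the direction of change was not tested.

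The first comparison set hymeglusin against DMSO in MLTC-1 cells. Of the 9 members, 8 fell and 1, Lbr, rose. Fdft1 fell by 21.6%, the least, Hsd17b7 fell by 44.0%, the most, and Lbr rose by 39.8%. In all, 24.5% of the 12873 genes tested fell and 23.8% rose, and the median log2 fold change was -0.57 over the members and 0.01 over all genes. The groups did not overlap for any of the 9, which held for 54.9% of all genes. Adjusted p-values come from edgeR's quasi-likelihood test over all genes tested, adjusted by Benjamini-Hochberg (threshold 0.05), and levels in this comparison are CPM scaled within the MLTC-1 libraries.

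Fdft1, squalene synthase, joins a pair of farnesyl diphosphate molecules into squalene (chromosome 14, 63145150 to 63181687). It stood at 317, 310 and 311 CPM with hymeglusin, against 393, 394 and 411 CPM with DMSO. Fdft1 had the smallest fall of the 8 (log2 -0.35, SE 0.045, adjusted p = 5.06e-08). Its exons share 774 bases, 18.3% of their length, with Ctsb on the opposite strand. Ctsb, a lysosomal protease, stood at 2263 ± 42.0 CPM with hymeglusin and 2794 ± 50.4 CPM with DMSO (SD, n = 3 each). The strand setting of the counting is not given in the sources used here, so reads of that stretch cannot be told apart.

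Sqle, squalene epoxidase, adds the oxygen that later becomes the sterol hydroxyl and is a control point of the pathway (chromosome 15, 59315092 to 59331193). It stood at 471, 478 and 468 CPM with hymeglusin, against 745, 685 and 677 CPM with DMSO. All hymeglusin libraries lay below the lowest DMSO library (log2 -0.57, SE 0.046, adjusted p = 1.43e-12). Lss, lanosterol synthase, folds squalene epoxide into the sterol rings (chromosome 10, 76531565 to 76557139). It stood at 268, 282 and 284 CPM with hymeglusin, against 384, 397 and 414 CPM with DMSO (log2 -0.52, SE 0.047, adjusted p = 2.22e-11).

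Cyp51, lanosterol demethylase, is a cytochrome P450 that removes the methyl group at carbon 14 (chromosome 5, 4080674 to 4104697). It stood at 427, 432 and 416 CPM with hymeglusin, against 683, 643 and 630 CPM with DMSO. Cyp51 thus fell by 34.8% (log2 -0.62, SE 0.046, adjusted p = 1.56e-13). The double bond that Cyp51 leaves is reduced by either of 2 sterol C14 reductases. Tm7sf2 codes for the one in the endoplasmic reticulum (chromosome 19, 6062821 to 6067850), and Lbr, the lamin B receptor, for one in the inner nuclear membrane that also binds B-type lamins and heterochromatin (chromosome 1, 181815315 to 181842401).

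These alternative enzymes moved in opposite directions. Tm7sf2 stood at 24.3, 23.1 and 25.9 CPM with hymeglusin, against 39.2, 38.2 and 39.8 CPM with DMSO (log2 -0.67, SE 0.071, adjusted p = 6.63e-10). Lbr stood at 137, 144 and 140 CPM with hymeglusin, against 100.1, 100.6 and 100.3 CPM with DMSO (log2 0.48, SE 0.050, adjusted p = 3.75e-10). Every hymeglusin library was below every DMSO library for Tm7sf2 and above every one for Lbr. Per length, the ratio of Tm7sf2 to Lbr within a library was 0.415, 0.376 and 0.434 with hymeglusin, against 0.918, 0.890 and 0.929 with DMSO. The log2 ratio of the counts was -2.52 ± 0.11 with hymeglusin and -1.36 ± 0.032 with DMSO (SD, n = 3 each), a difference of -1.16. The exact permutation p was 0.1, two-sided, the smallest that 3 against 3 libraries allow.

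Msmo1, the oxidase that starts removal of the methyl groups at carbon 4 (chromosome 8, 64718123 to 64733578), stood at 254, 275 and 255 CPM with hymeglusin, against 423, 397 and 376 CPM with DMSO. Its fall was close in size to that of Cyp51 (log2 -0.61, SE 0.050, adjusted p = 1.69e-12). Hsd17b7, which restores the hydroxyl at carbon 3 after that removal and can also turn oestrone into oestradiol (chromosome 1, 169949535 to 169969242), stood at 150, 160 and 147 CPM with hymeglusin, against 274, 270 and 272 CPM with DMSO. Hsd17b7 had the largest fall of the 8 (log2 -0.84, SE 0.048, adjusted p = 1.93e-16). Dhcr7 reduces 7-dehydrocholesterol to cholesterol, the last step of one branch (chromosome 7, 143823167 to 143848410). It stood at 283, 270 and 300.2 CPM with hymeglusin, against 368, 387 and 375 CPM with DMSO (log2 -0.41, SE 0.048, adjusted p = 8.10e-09).

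**Figure D1:**
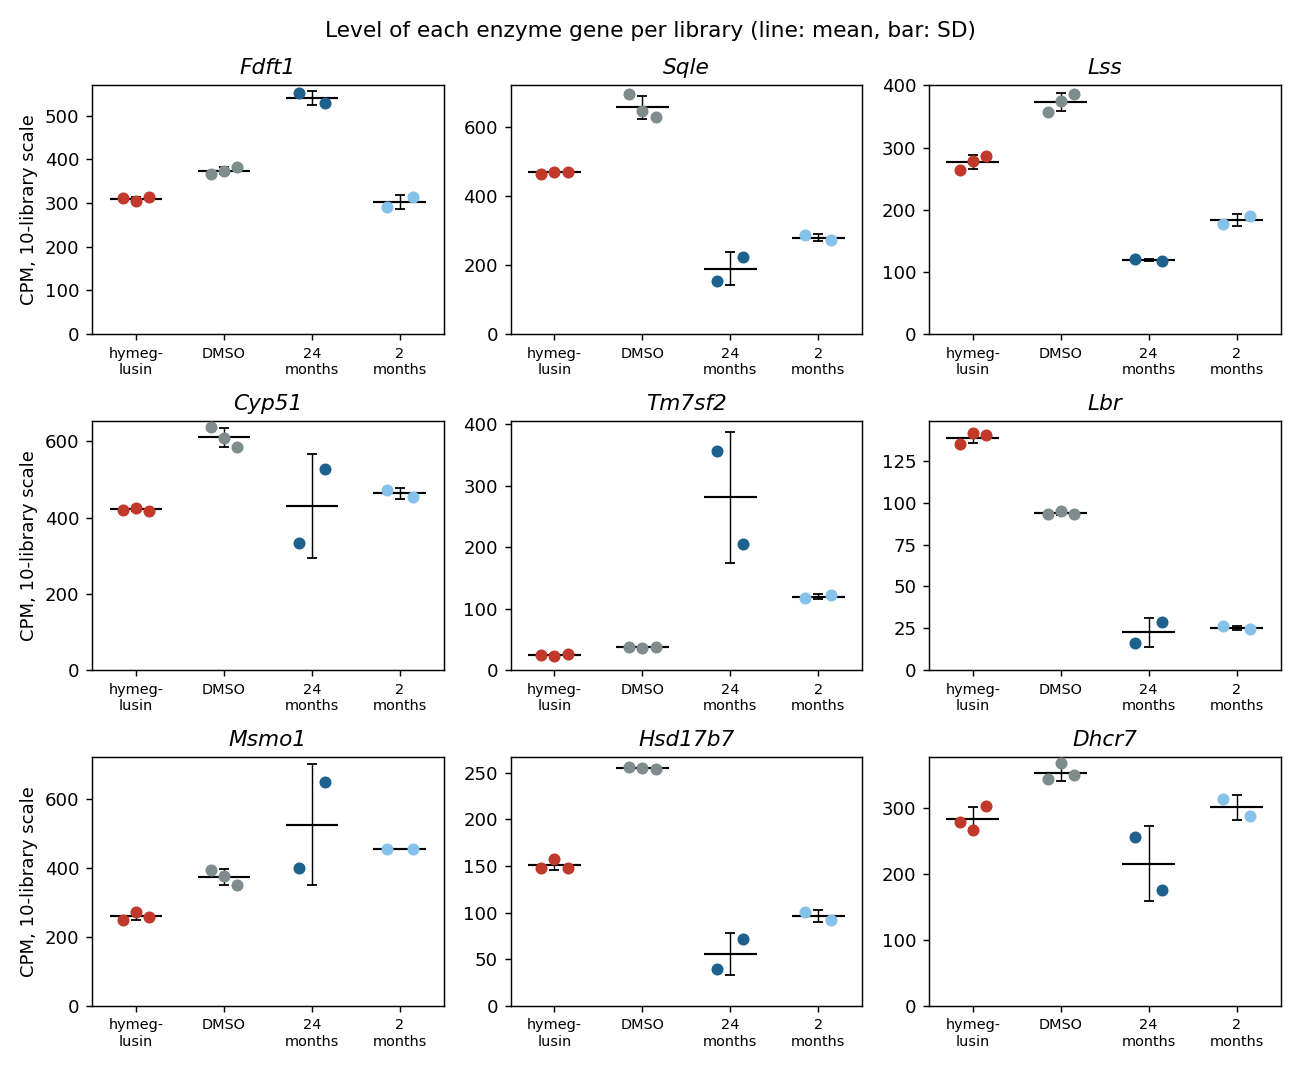
Level of each of the 9 genes in each library, in CPM scaled over all 10 libraries (vertical axes from 0), for hymeglusin, DMSO, 24 months and 2 months; points are libraries, lines are means and bars are SDs (n = 3, 3, 2 and 2). The hymeglusin points lie below the DMSO points in every panel but that of Lbr, and the 24-month points lie far apart for Cyp51, Tm7sf2, Msmo1 and Hsd17b7.

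Most listed genes of the other pathway steps also fell, beside 24.5% of all genes. Of 9 listed genes of the mevalonate steps, 8 fell and 0 rose (median log2 -0.45), the exception being Ggps1 (-0.08, adjusted p = 0.383). The 8 that fell included Mvd (-0.85, SE 0.054, adjusted p = 3.20e-15), the decarboxylase that makes isopentenyl diphosphate, Fdps (-0.63, SE 0.046, adjusted p = 6.75e-14), which supplies Fdft1 with its substrate, and the isomerase Idi1 (-0.67, SE 0.056, adjusted p = 2.63e-12). All 5 tested genes of the list for other sterol steps after squalene fell (median -0.46), with Nsdhl, the dehydrogenase that acts between Msmo1 and Hsd17b7, at -0.68 (SE 0.056, adjusted p = 2.90e-12) and the desaturase Sc5d at -0.53 (SE 0.048, adjusted p = 2.14e-11). In the list for sterol sensing, 8 of 10 tested genes fell and 0 rose (median -0.16), with Scap, the escort of SREBP, at -0.43 (SE 0.049, adjusted p = 4.50e-09), its anchor Insig1 at -0.45 (SE 0.048, adjusted p = 9.50e-10) and Srebf1 at -0.25 (SE 0.049, adjusted p = 7.19e-05). Srebf2, the gene of SREBP2, was at -0.15 (adjusted p = 0.00743). Of the 10 Leydig cell markers 7 fell and 1 rose, Hsd3b6, from a low level (2.96 CPM with hymeglusin and 1.78 CPM with DMSO).

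With 1 fit of all 10 libraries, which gives each gene a single spread for both cell types, 2 members fell (Lss and Hsd17b7) and 0 rose. Directions in that fit were as in the fit of MLTC-1 cells alone, and adjusted p-values of the other 7 ran from 0.0598 to 0.221.

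**Figure D2:**
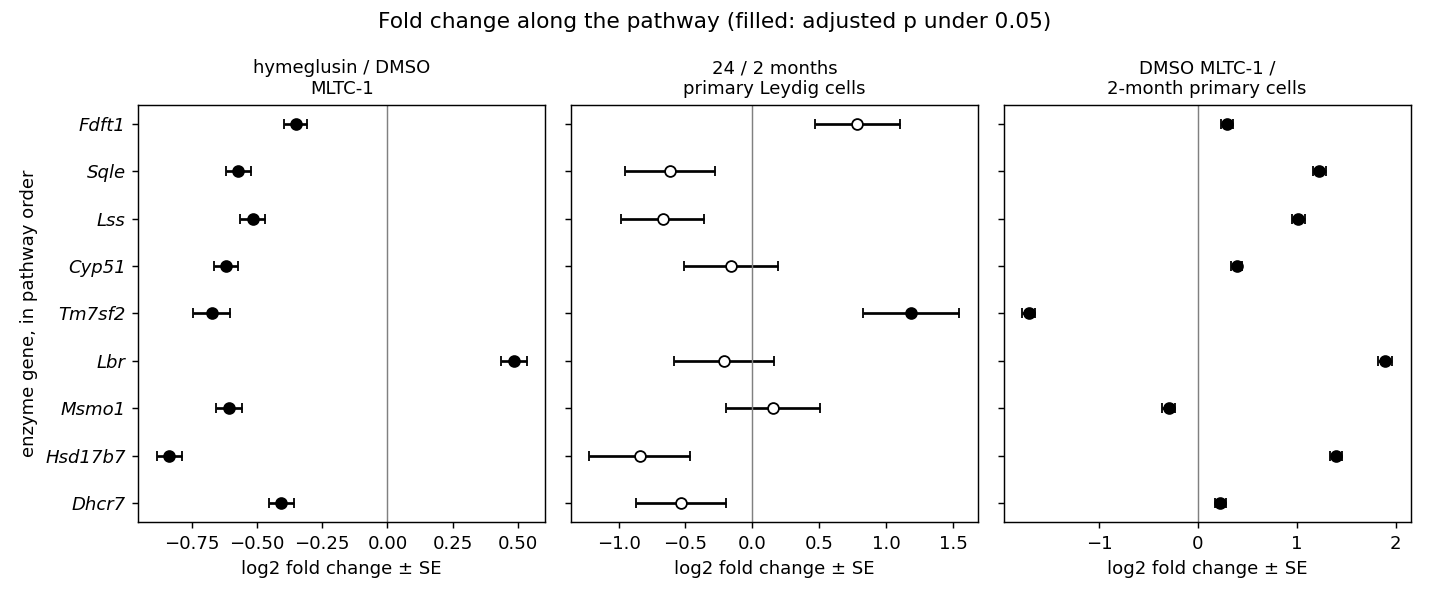
Log2 fold change of each gene, in pathway order from top to bottom, for hymeglusin over DMSO, 24 over 2 months and DMSO MLTC-1 cells over 2-month primary cells; bars are SEs, filled points passed an adjusted p of 0.05, and the horizontal scales differ. In the left panel Lbr alone lies right of 0, and in the middle panel Tm7sf2 is the filled point.

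The second comparison set primary Leydig cells at 24 months against 2 months. Of the 9 members 1 rose, Tm7sf2, and 0 fell, beside 13.5% of the 16381 genes tested that rose and 15.1% that fell. At an unadjusted p under 0.05 there were 3 of the 9 members, beside 7070 of the 16381 genes. The median log2 fold change was -0.21 over the members and -0.01 over all genes. Levels here are CPM scaled within the primary cell libraries. In bulk samples, fewer cells of a type and less RNA per cell cannot be told apart.

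Tm7sf2 stood at 330 and 192 CPM at 24 months, against 116 and 114 CPM at 2 months (log2 1.19, SE 0.36, adjusted p = 0.0376). The 24-month libraries differed from each other by more than the lower one differed from the 2-month pair. Without 24 months replicate 1 the log2 fold change was 0.70, without replicate 2 it was 1.47, and without 2 months replicate 1 or 2 it was 1.18 or 1.15. Each of these fits leaves 1 library at 1 age, so its spread comes from the other pair alone. Steady fold changes in them do not show that the call is stable. With an offset for transcript length the log2 fold change was 0.42 (adjusted p = 0.395), and with length and GC content 0.30 (adjusted p = 0.398). Tm7sf2 also lost its call with total count scaling (adjusted p = 0.0768). Its exons share 532 bases, 12.1% of their length, with Vps51 on the same strand, which stood at 49.7 ± 17.6 CPM at 24 months and 31.4 ± 0.62 CPM at 2 months (SD, n = 2 each).

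Lbr stood at 15.05 and 26.8 CPM at 24 months, against 26.0 and 22.7 CPM at 2 months, so the groups overlapped (log2 -0.21, SE 0.37, adjusted p = 0.686). The per-length ratio of Tm7sf2 to Lbr was 51.4 and 16.8 at 24 months, against 10.4 and 11.8 at 2 months. Both 24-month ratios were above both 2-month ratios, but they differed from each other by more than the lower differed from the 2-month pair. The log2 count ratio was 3.65 ± 1.14 at 24 months and 2.24 ± 0.12 at 2 months (SD, n = 2 each), a difference of 1.41 with an exact permutation p of 0.333, two-sided, the smallest that 2 against 2 allow. Without 24 months replicate 1 the difference was 0.60 and without replicate 2 it was 2.21. The ratio sets a transcript of 1498 bases against one of 3510 bases and has no length correction. With the length offset the fold changes lay close together, at 0.42 for Tm7sf2 and 0.13 for Lbr, and with length and GC content at 0.30 and 0.22.

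**Figure D3:**
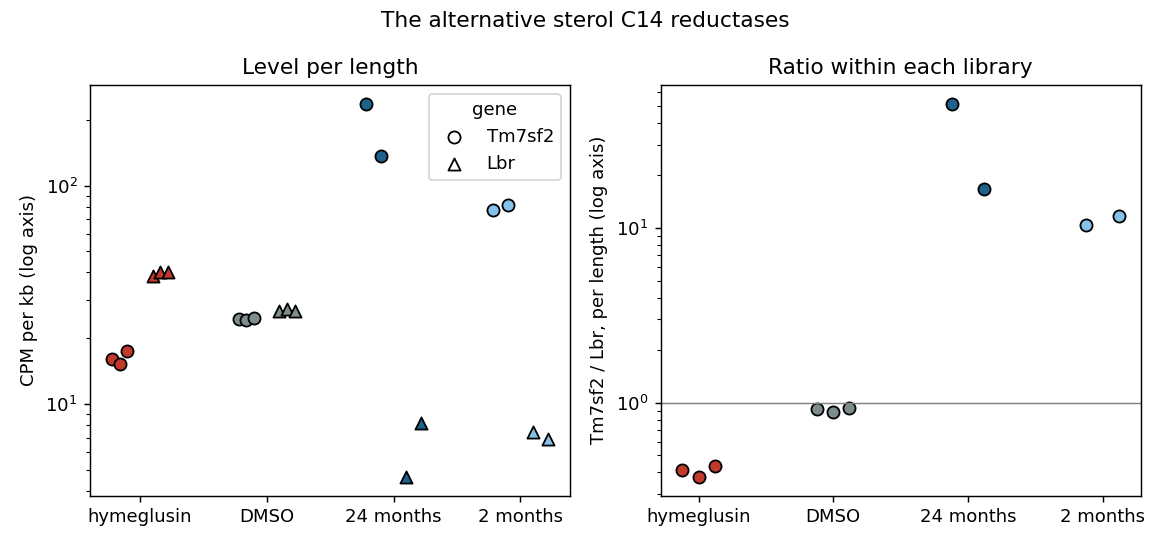
Left, the level of Tm7sf2 (circles) and Lbr (triangles) per library, in CPM per kilobase of transcript on a log axis; right, the ratio of Tm7sf2 to Lbr per length within each library, on a log axis with a line at 1. Colours mark hymeglusin, DMSO, 24 months and 2 months; ratios lie at 0.376 to 0.434 with hymeglusin, 0.890 to 0.929 with DMSO, 16.8 to 51.4 at 24 months and 10.4 to 11.8 at 2 months.

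The remaining members did not pass the threshold in the fit of primary cells. In 1 fit of all 10 libraries Sqle (adjusted p = 0.0142), Lss (0.00142), Hsd17b7 (0.0146) and Dhcr7 (0.0366) were called lower. Fdft1 stood at 512 and 495 CPM at 24 months, against 290.1 and 294 CPM at 2 months, and both pairs lay close together (log2 0.79, SE 0.32, adjusted p = 0.0865). It was called higher by DESeq2 (adjusted p = 0.0486), with upper quartile scaling (0.0463) and in 1 fit of all libraries (0.000242). So it was with the length offset (log2 1.24, 0.0112) and with length and GC content (1.19, 0.00193). It was not called with total counts (0.150), RLE scaling (0.0849), limma-voom (0.0687), the replicate block (0.117), no count filter (0.126) or a filter at 10 CPM (0.0546). With 1 library left out, the log2 fold change of Fdft1 ran from 0.71 to 0.77. Its overlapping neighbour Ctsb stood at 1408 ± 62.9 CPM at 24 months and 1209 ± 130 CPM at 2 months (SD, n = 2 each, log2 0.22, adjusted p = 0.63).

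Sqle stood at 144 and 208 CPM at 24 months, against 285 and 254 CPM at 2 months (log2 -0.61, SE 0.34, adjusted p = 0.188). Lss stood at 112 and 110.2 CPM at 24 months, against 176 and 177 CPM at 2 months (log2 -0.67, SE 0.31, adjusted p = 0.127). Hsd17b7 stood at 36.5 and 67.0 CPM at 24 months, against 100.3 and 85.4 CPM at 2 months (log2 -0.84, SE 0.37, adjusted p = 0.115). For these 3 genes every 24-month library lay below every 2-month library, as also for Dhcr7, which stood at 237 and 163 CPM at 24 months, against 312 and 267 at 2 months (log2 -0.53, SE 0.34, adjusted p = 0.251). Groups did not overlap for 6 of the 9 members, against 73.8% of all genes. With the length offset Lss was at 0.13 and Hsd17b7 at -0.11, while Sqle stayed at -0.58 and Dhcr7 at -0.45, none past the threshold. Without 24 months replicate 2 or 1, the log2 fold change was -0.96 or -0.42 for Sqle, -1.40 or -0.52 for Hsd17b7 and -0.72 or -0.73 for Lss. In the same order it was -0.35 or -0.87 for Dhcr7, -0.59 or 0.10 for Cyp51 and -0.75 or 0.10 for Lbr. These fits leave 1 library at 24 months, so their spread comes from the 2-month pair alone.

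Cyp51 stood at 309 and 493 CPM at 24 months, against 471 and 423 CPM at 2 months (log2 -0.16, SE 0.35, adjusted p = 0.761). Msmo1 stood at 371 and 606 CPM at 24 months, against 453 and 425 CPM at 2 months (log2 0.15, SE 0.35, adjusted p = 0.765). In both, 1 of the 24-month libraries was below and the other above the 2-month pair, and the direction turned with the library left out.

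**Figure D4:**
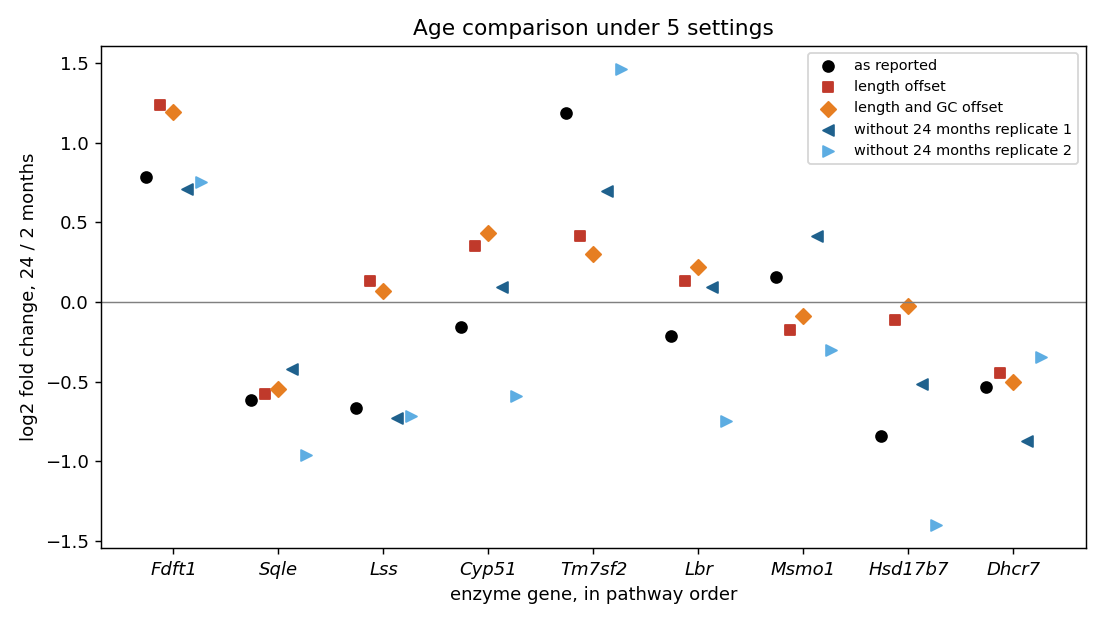
Log2 fold change of each gene at 24 over 2 months as reported, with offsets for transcript length and for length and GC content, and without each 24-month library. Fdft1 and Tm7sf2 lie above 0 and Sqle, Hsd17b7 and Dhcr7 below 0 under all 5 settings, while Lss, Cyp51, Lbr and Msmo1 lie on both sides.

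Calls between ages followed transcript length over all genes. In the decile of shortest transcripts 841 of 1622 genes rose and 24 fell, and in the decile of longest 19 rose and 891 of 1622 fell. Among the members Tm7sf2 has the shortest coding transcript, 1498 bases (second decile, 548 genes higher and 29 lower), and Lss and Hsd17b7 have the longest, 4667 and 4612 bases (eighth decile, 46 higher and 413 lower). Fdft1, at 3698 bases, is in the seventh decile, where 54 genes rose and 195 fell. Of 10 spermatid markers 7 rose, with a summed level of 7017 to 12685 CPM at 24 months against 2381 to 3319 CPM at 2 months, and 4 of 9 macrophage markers rose, with a sum of 49.6 to 60.7 CPM at 24 months against 13.3 to 15.7 CPM at 2 months. Of 5 peritubular myoid markers 2 rose, with sums of 90.3 to 180 CPM at 24 months against 28.9 to 45.01 CPM at 2 months. Most of these sums was Actg2, which averaged 113 CPM at 24 months and 31.1 CPM at 2 months on the scale of this comparison. Acta2, the other that rose, averaged 2.48 and 0.32 CPM, so the sums describe Actg2 more than the list. No marker of these 3 lists was at 0 in either age group, and the part of such cells and of transcript length in the members' values was not tested beyond the offsets given.

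The rest of the pathway was split with age, beside 13.5% of all genes that rose and 15.1% that fell. Of the mevalonate steps 4 of 9 genes rose and 1 fell, with Pmvk at 1.61 (SE 0.36, adjusted p = 0.0147) and Fdps at 1.69 (SE 0.39, adjusted p = 0.0164). Of the 5 other sterol genes 1 rose, Ebp (1.57, SE 0.35, adjusted p = 0.0156), and 1 fell. In sterol sensing 3 of 11 fell and 0 rose, Marchf6, the ubiquitin ligase that marks squalene epoxidase for degradation, at -1.76 (SE 0.39, adjusted p = 0.0150), Srebf2 at -1.07 (SE 0.33, adjusted p = 0.0381) and the protease gene Mbtps1 at -1.01 (SE 0.32, adjusted p = 0.0413).

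The third comparison set DMSO MLTC-1 cells against 2-month primary cells, to order the levels in both systems. It shares its libraries with the other comparisons, and cell line, culture and preparation cannot be told apart in it. Of the 9 members 7 were higher and 2 lower in MLTC-1 cells, beside 34.4% and 48.5% of the 16092 genes tested. The groups did not overlap for any member, which held for 89.4% of all genes. The median over all genes was -0.27, and -0.49 to 0.10 over the settings.

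Lbr was 3.71-fold higher in MLTC-1 cells (log2 1.89, SE 0.069, adjusted p = 2.41e-08) and Tm7sf2 3.28-fold lower (-1.71, SE 0.065, adjusted p = 2.86e-08). With the length offset Tm7sf2 was at -1.03 and Lbr at 2.08, and with length and GC content at -1.36 and 2.30. Hsd17b7 (log2 1.40, SE 0.061), Sqle (1.23, SE 0.064) and Lss (1.02, SE 0.066) were at least 2.02-fold higher, with adjusted p-values of 6.91e-08, 1.95e-07 and 7.75e-07. Smaller rises were seen for Cyp51 (0.39, adjusted p = 0.000196), Fdft1 (0.29, 0.00174) and Dhcr7 (0.23, 0.00564). Msmo1 was lower (-0.30, SE 0.063, adjusted p = 0.00194), but higher with the length offset (0.22, 0.00907) and with length and GC content (0.51, 1.92e-05). Its value of -0.30 lay close to the median of all genes, and it was not called in 1 fit of all libraries (0.162). The smaller rises also depended on the setting. Fdft1 and Dhcr7 lost their calls with upper quartile scaling (0.0545 and 0.287) and a filter at 10 CPM (0.0852 and 0.316), Dhcr7 also in 1 fit of all libraries (0.199) and without DMSO replicate 2 (0.061), and Cyp51 in 1 fit of all libraries (0.0557). Spermatid markers summed to 71.4 to 83.4 CPM in DMSO cells and 2381 to 3319 CPM at 2 months. In DMSO cells 6 of the 10 were at 0 (Prm1, Prm2, Tnp2, Spaca1, Akap4 and Gsg1), and Odf2 alone averaged 80.9 CPM on the scale of this comparison. Macrophage markers summed to 0.507 to 1.07 CPM in DMSO cells, with 7 of 10 at 0 (Adgre1, C1qa, C1qb, C1qc, Mrc1, Ptprc and Cd163), against 13.3 to 15.7 CPM at 2 months. The part of either marker list in the members' differences was not tested.

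Compared per length on a scale over all 10 libraries, as CPM per kilobase of the longest coding transcript, the members differed widely in each group. With hymeglusin Sqle was highest (170 ± 1.51) and Tm7sf2 lowest (16.2 ± 1.10), and with DMSO it was again Sqle (238 ± 12.1) and Tm7sf2 (24.4 ± 0.28, SD, n = 3 each). At 24 months Msmo1 (257 ± 85.9) was highest and Lbr (6.40 ± 2.52) lowest, and at 2 months Msmo1 (223 ± 0.075) and Lbr (7.19 ± 0.37, SD, n = 2 each). The 9 members summed to 724 to 746 CPM per kilobase with hymeglusin and 965 to 1011 with DMSO, and to 854 to 924 at 24 months and 773 to 783 at 2 months. In plain CPM the sums were 2229 and 2526 at 24 months, against 2243 and 2211 at 2 months, and the age groups overlapped.

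The order of the groups differed between members. Sqle, Lss and Hsd17b7 were ordered DMSO, hymeglusin, 2 months and 24 months from high to low, with no neighbours overlapping. Tm7sf2 ran 24 months, 2 months, DMSO and hymeglusin, also without overlap, and Msmo1 had the same order with the age groups overlapping. Lbr ran hymeglusin, DMSO, 2 months and 24 months, with the age groups overlapping. Fdft1 ran 24 months, DMSO, hymeglusin and 2 months, of which hymeglusin and 2 months overlapped. In Cyp51 the order was DMSO, 2 months, 24 months and hymeglusin, with 24 months overlapping both its neighbours, and in Dhcr7 it was DMSO, 2 months, hymeglusin and 24 months, with 2 months and hymeglusin overlapping.

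Across the 10 libraries, the genes most like Sqle among 10149 were Etfdh (Pearson's r 0.998), Hnrnpf (0.996) and Ero1l (0.996). Lbr was most like Tube1 (0.998) and Trip13 (0.996). These correlations of log2 CPM are descriptions over libraries of 2 cell types that share treatment and preparation. Trip13, an ATPase of the mitotic checkpoint, averaged 23.6 CPM with hymeglusin and 14.3 with DMSO, and 2.13 at 24 months and 2.60 at 2 months.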

How the data were processed

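The authors deposited raw counts, one value per gene symbol and library, without normalization. The submitters' processing notes name mm10, featureCounts 2.0.6, HISAT2 2.2.1, fastp 0.23.4 and FastQC 0.12.1; for options, strand setting and annotation, nothing is given in the sources used here. Groups came from the sample titles.

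Each comparison was fitted on its own libraries with edgeR 4.0.16 (R 4.3.3): filterByExpr (minimum count 10, minimum total 15), TMM, robust quasi-likelihood F-test, two-sided, Benjamini-Hochberg over all genes, threshold 0.05. The SE is the log2 fold change divided by the square root of F. The procedure was tested on simulated data, where it recovered 83.8% of genes changed by a log2 of 0.5 with hymeglusin (12757 genes). With age it recovered 0 of 100 at 0.5 and 13.4% of 97 at 1.5 (16081 genes). Far fewer genes changed in these simulations than were called in the data, which with age were 2214 higher and 2471 lower. The adjusted threshold was therefore stricter in the simulations, and the shares recovered do not give the power of the comparisons. Alternatives were limma-voom 3.58.1, DESeq2 1.42.0, scaling by total counts, by upper quartile or by RLE, 2 count filters, the replicate block, 1 fit of 10 libraries, loess offsets (span 0.3) on the longest coding GENCODE M21 transcript, and each library left out. Ratios were tested by exact permutation. The named genes were all members, up to 3 of each list by adjusted p, Srebf2 and Ctsb and Vps51 as overlapping neighbours, and the 3 most like Sqle and Lbr; some of these are not reported here. Members and lists were chosen with earlier results of these data known. Promoters are RefSeq's and positions RefSeq gene bounds on GRCm38.p6, the assembly of mm10. Counting error only is covered by depth.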

Additional observations from a re-analysis of the deposited data

How the results depend on the processing

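With hymeglusin, the 9 members kept their direction under all 17 alternatives and their calls under 16, the exception being 1 fit of 10 libraries, where 0 members were higher and 2 lower (all genes 645 higher and 289 lower). Total count scaling moved the median of all genes to 0.11 and gave 4659 higher and 1996 lower. Leaving out a library gave 1 higher and 8 lower members each time, 2644 to 2913 genes higher and 2753 to 3074 lower, and a Tm7sf2 to Lbr log2 ratio difference of -1.21 to -1.10.

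With age, members higher were 2 with upper quartile scaling, DESeq2 and 1 fit of 10 libraries and 0 with total counts; 4 were lower in 1 fit. Genes higher and lower numbered 531 and 1301 with total counts (median -0.21; 0.17 with upper quartile scaling), 4309 and 4559 in 1 fit, 1323 and 825 with the length offset, and 1465 lower with length and GC content. Without 1 library, 0 to 2 members were higher and 0 to 5 lower, and 239 to 4259 and 602 to 5628 of all genes, where the spread comes from the remaining pair alone; the ratio difference ran 0.60 to 2.21. Directions turned with the length offset for Lss (0.13), Cyp51 (0.35), Lbr (0.13) and Msmo1 (-0.18), with length and GC content for the same genes (0.0705, 0.43, 0.22 and -0.0875), with upper quartile scaling for Cyp51 (0.0253), with total counts for Msmo1 (-0.0209), and with a 24-month library left out for Cyp51 (-0.59 to 0.10), Lbr (-0.75 to 0.10) and Msmo1 (-0.30 to 0.42). The cause was not tested.

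For MLTC-1 DMSO against 2 months, 1 member was lower in 1 fit and with both offsets, where Msmo1 turned to 0.22 and 0.51. A filter at 10 CPM, which tests fewer genes, gave 4072 genes higher and 4413 lower, with a median over all genes of -0.045. Without 1 library, 6 to 7 members were higher, 2 lower, and 5095 to 5637 and 7492 to 7875 of all genes.

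Deviations of same-numbered libraries from their group means had r of 0.007, -0.027 and 0.13 with hymeglusin and -0.095 with age. Differently numbered libraries ran from -0.144 to 0.128 with hymeglusin. With 2 libraries per age the deviations within a group mirror each other. The check therefore cannot tell if the numbers pair the samples. With the replicate block, 1 and 8 members were called with hymeglusin and 1 and 0 with age, and the ratio differences stayed at -1.16 and 1.41.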

Other observations

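Lbr has partners at the nuclear lamina, and of 15 listed genes of the lamina and of Lbr partners 5 rose and 2 fell with hymeglusin against DMSO, beside 23.8% and 24.5% of all genes. Lmna, the A-type lamin, was at 0.59 (SE 0.047, adjusted p = 8.49e-13), Sun2, which links lamina and cytoskeleton, at 0.42 (SE 0.055, adjusted p = 5.69e-08) and Lmnb2, a B-type lamin, at 0.28 (SE 0.048, adjusted p = 9.07e-06) on the log2 scale. The 2 that fell, named after their values were seen, were Cbx3 (-0.26, adjusted p = 9.45e-05) and Tor1aip1 (-0.24, adjusted p = 0.000114). All 16 listed mitosis genes rose in the same comparison, with Top2a at 607 CPM with hymeglusin and 354 CPM with DMSO (log2 0.78, SE 0.046, adjusted p = 4.48e-16), Ccnb1 at 0.75 (SE 0.049) and Cenpe at 0.71 (SE 0.050). Their part in the rise of Lbr was not tested. At 24 months against 2 months 0 of the 15 lamina genes rose and 3 fell, and 0 of the 16 mitosis genes rose and 4 fell, beside 13.5% of all genes that rose and 15.1% that fell.

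Cyp51, Sqle and Msmo1 draw electrons from cytochrome P450 reductase or cytochrome b5. Of 5 listed donors 1 rose and 2 fell with hymeglusin against DMSO, beside 23.8% and 24.5% of all genes. Por rose (0.22, SE 0.050, adjusted p = 0.000490), and Cyb5b (-0.34, SE 0.045, adjusted p = 9.16e-08) and Cyb5a (-0.31, SE 0.055, adjusted p = 1.33e-05) fell. At 24 months Cyb5a was the 1 donor called, beside 13.5% of all genes that rose and 15.1% that fell. Its level was 348 CPM at 24 months and 127 CPM at 2 months (log2 1.45, SE 0.34, adjusted p = 0.0178). With age 0 of 10 spermatogonia and spermatocyte, 0 of 7 Sertoli cell and 0 of 4 endothelial markers passed the threshold. Of 10 Leydig cell markers 1 rose and 1 fell, beside the same 13.5% and 15.1% of all genes. Median log2 fold changes were -0.18 for spermatogonia and spermatocytes, 0.55 for Sertoli cells and 1.07 for endothelium. The lack of calls therefore does not show that these lists were unchanged.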
